A study of Mus musculus with 8 samples.

Results

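The nuclear genes that encode the mitochondrial respiratory chain and the ATP synthase were examined in the cochlea of knockout mice without miR-183 and miR-96. Members were taken from array features that the platform annotation links to exactly 1 gene symbol. The symbol had to begin with Nduf followed by a, b, c, s or v and a digit, be one of Sdha to Sdhd, or begin with Uqcr, Cox4 to Cox8 or Atp5. This gave 80 genes of the 22180 that such features cover, on 89 features. Of the 80, 78 are protein-coding and 2, Atp5c1-ps and Uqcrh-ps1, are pseudogenes. A gene with several features, as 9 members had, was represented by its brightest feature, by mean over the 8 arrays. A further 10 features that carry a member symbol beside another symbol were left out, among them those of Ndufs6, Ndufb2, Ndufb4, Cox6c and Uqcr10.

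The study compared 4 mice of genotype miR-183/96 KO with 4 mice of genotype control, all at postnatal day 16, with strain, sex, zygosity and the origin of the controls not given in the sources used here. Each array carries RNA of both encapsulated cochleae of 1 animal, hybridised to an Affymetrix mouse gene array, and expression is given as log2 values from the authors' RMA normalisation. The whole capsule was taken, so bone, marrow, nerve and any muscle left on the capsule can contribute RNA beside the sensory epithelium, and fewer cells of a type cannot be told apart from less RNA per cell. The targeted microRNA Mir96 read 4.01, 4.26, 4.26 and 4.31 in knockout replicates 1 to 4 and 5.71, 5.26, 6.23 and 5.57 in control replicates 1 to 4 (difference -1.48, limma adjusted p = 0.00932). Mir183 read 2.40, 2.38, 1.82 and 2.38 in knockout replicates 1 to 4 and 2.45, 2.23, 2.79 and 2.84 in control replicates 1 to 4 (difference -0.33, adjusted p = 0.398). It overlapped between the groups and lay in the dimmest decile of features. All knockout animals were thus below the controls for Mir96, and Mir183 did not separate them. Over all features, pairs of arrays had correlations of 0.947 to 0.976. All 4 fibrocyte markers (Coch, Otos, Slc4a11 and Car3) lay among the brightest 10% of features. Hair cell markers had a median level of 5.57 over 7 genes, against 5.45 over all features tested. Slc26a5, Tmc1 and Slc17a8 lay in the lower 50% of features, and Myo7a, Espn, Otof and Pou4f3 in the upper 50%.

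Oxidative phosphorylation takes place in the inner mitochondrial membrane. Complex I (NADH dehydrogenase) and complex II (succinate dehydrogenase) pass electrons to ubiquinone, complex III (cytochrome bc1) passes them to cytochrome c, and complex IV (cytochrome c oxidase) passes them to oxygen. Complex V, the ATP synthase, uses the resulting proton gradient to make ATP. In the cochlea the stria vascularis, which pumps potassium, and the hair cells and auditory neurons depend on this supply. MiR-183 and miR-96 are microRNAs of sensory cells, and the mature sequences from RefSeq (GRCm38.p6) are those named in the genotype, with the seed in capitals.
miR-96-5p, chr6:30169506-30169528, minus strand: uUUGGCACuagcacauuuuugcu
miR-183-5p, chr6:30169711-30169732, minus strand: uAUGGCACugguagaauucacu

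No respiratory chain gene passed the test. In limma with Benjamini-Hochberg adjustment over 23521 features, 0 of 80 members were called, beside 3 features in all (0.0128%), and the smallest adjusted p among members was 0.291. The members nonetheless leaned one way. The knockout mean was below the control mean for 67 of 80 members, where 47.6% of all features were lower. The median log2 difference, knockout minus control, was -0.17 over the members and 0.014 over all features tested. At an unadjusted p under 0.05, 20 of 80 members (25%) were lower and 0 higher, against 7.25% and 7.04% of all features. Every knockout array read below every control array in 11 members, or 13.8%, where 2.65% of all features did so. The reverse separation was seen in 0 members and in 3.3% of all features. The count of 20 depended on which animals were included. It was 12 without control replicate 2 (3.66% of all features) and 34 without control replicate 3 (12.6% of all features). Among the 2353 features of the brightest 10% by mean level, the counts in these fits were 316 and 1123. Among the 43 members in that 10% they were 10 and 27. The count of higher members was then 1 in each case, Cox7b without control replicate 2 and Atp5j2, at 0.36, without control replicate 3.

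**Figure D1:**
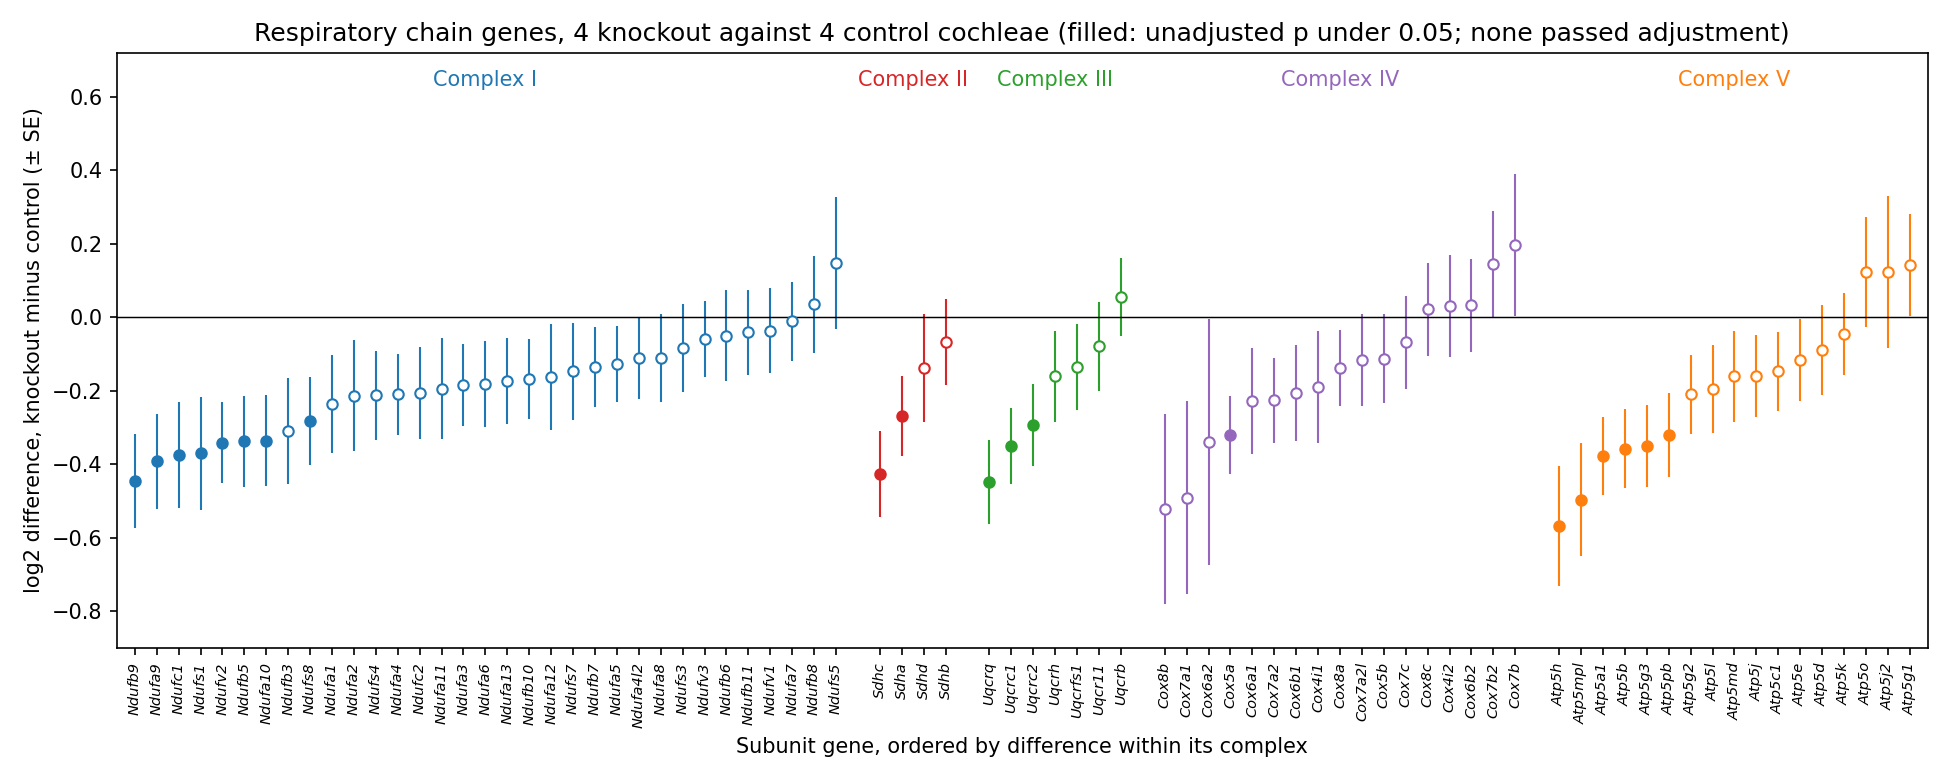
Log2 difference between 4 knockout and 4 control cochleae for the 78 protein-coding members (y axis, with limma's standard error), ordered within complex I to V on the x axis. Filled points have an unadjusted p under 0.05: all 20 lie below 0, from Atp5h at -0.57 to Sdha at -0.27, and none passed adjustment.

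Differences varied with the brightness of the features. Respiratory chain genes were bright on this array: 43 of 80 members lay in the brightest decile (10% of the features tested, ranked by mean level) and 14 in the next. Over all features, the median difference went from 0.125 in the dimmest decile to -0.21 in the brightest. The 43 members of the brightest decile had a median of -0.21. Of these 43, 41 (95.3%) were below 0, against 87.7% of all features of that decile, and 15 (34.9%) were lower at an unadjusted p under 0.05, against 27.1%. Their groups were apart in 8 (18.6%), against 7.05%. In the second brightest decile the members' median was -0.17 and that of all features -0.16. All 14 members there were below 0 (82.4% of all features), 4 (28.6%) were lower at that p (17.9%) and 3 (21.4%) were apart (5.4%). The 23 members below these deciles had a median of -0.041, with 12 below 0 and 1 lower at that p. The members' median in the brightest decile thus equalled that of all features there to 2 decimals.

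**Figure D2:**
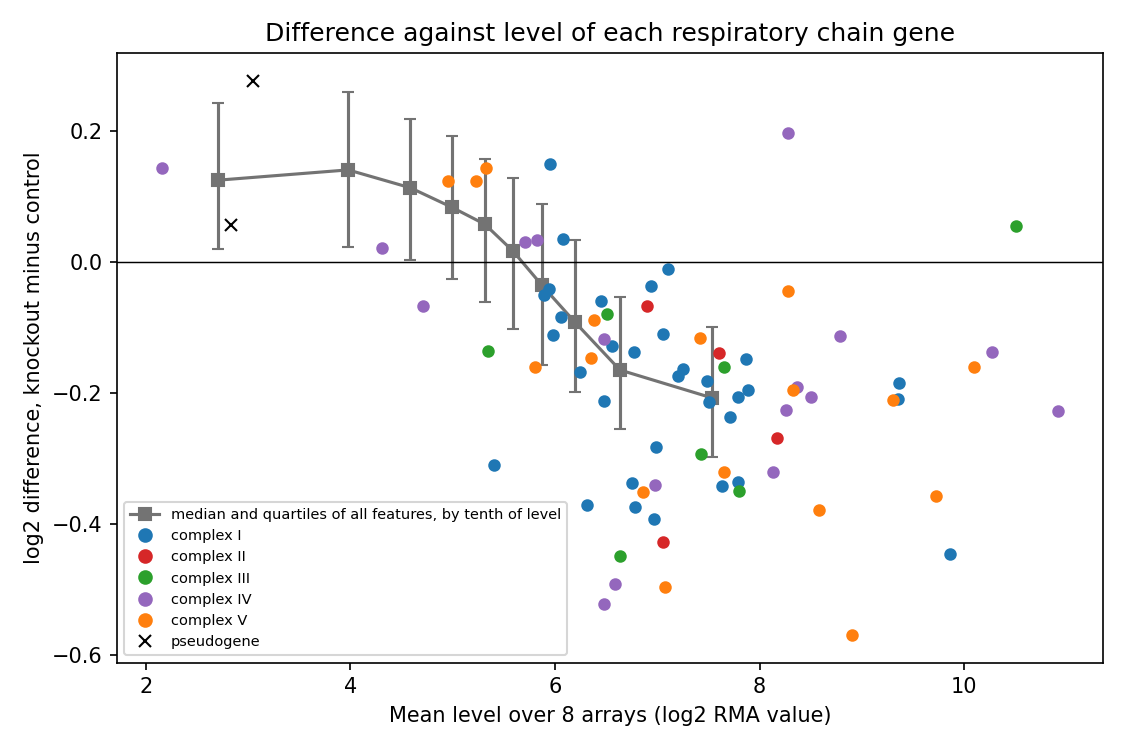
Log2 difference (knockout minus control, y axis) against mean log2 level over the 8 arrays (x axis) for each of the 80 members, with the median and quartiles of all features in each decile of level in grey. The grey line goes from 0.125 in the dimmest to -0.21 in the brightest decile, and the medians of the members in the brightest decile and of all features there are both -0.21.

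Cyclic loess, which reduces differences between arrays that follow brightness, gave smaller values. A trend with brightness remained: the median over all features was 0.018 in the dimmest decile and -0.065 in the brightest. The members' median was then -0.064, beside -0.030 over all features, with 58 of 80 below 0 (57.3% of all features) and 11 (13.8%) lower at an unadjusted p under 0.05 (5.73%). Of the 2353 features of the brightest decile, 1591 were below 0 and 7.22% lower at that p. The 43 members of that decile had a median of -0.070, with 34 below 0 and 7 (16.3%) lower. The groups were apart in 7 members, or 8.75%, against 2.9%. Of the members apart before, Ndufb9, Atp5a1, Atp5b and Atp5pb were still apart, while Ndufv2, Ndufc1, Sdha, Uqcrc1, Uqcrq, Cox5a and Atp5g3 overlapped. Sdhc, Uqcrc2 and Atp5mpl, which overlapped before, were apart after cyclic loess. No member was called, beside 0.0085% of all features. By complex, complex V had 5 of 17 genes lower at that p and complex I 4 of 33, complexes II and III had 1 each and complex IV 0 of 17. Whether the complexes differ from each other was not tested.

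Before the members are taken one by one, the promoters of a few are shown. NRF1 and the ETS factor GABP are known activators of many respiratory chain genes, and ERR factors and YY1 act at others. Of the 78 protein-coding members, 64 had a RefSeq promoter window (GRCm38.p6, 250 bases before to 50 after the start), and the first listed window of each gene was searched on both strands. The NRF1 core CGCANGCG was found in 21 windows (32.8%), against 11.4% of 17492 protein-coding genes. The ETS motif CCGGAAG was in 16 (25%), against 11.9%, the YY1 motif AAGATGGC in 8 (12.5%), against 3.22%, and the ERR motif TCAAGGTCA in 2 (3.12%; Atp5g3 and Sdhd), against 0.332%. The general E-box CANNTG was in 45 windows (70.3%), against 68.8%. These motifs do not contain one another, but matches can lie side by side. Among the 8 members with a window whose groups were apart, 3 held the NRF1 core, 0 the ETS motif, 2 the YY1 motif, 1 the ERR motif and 6 the E-box. Whether these 8 differ from the other members was not tested. A match is a description of the letters and shows no binding.

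The 250 bases before the start are printed for 4 members, with NRF1 and ETS matches in capitals. Atp5h was the member with the lowest difference, Cox6a1 is a widely expressed cytochrome oxidase isoform, and Cox7a1 and Cox8b are the muscle and heart isoforms described further on.
Atp5h, chr11:115419920-115420169, minus strand: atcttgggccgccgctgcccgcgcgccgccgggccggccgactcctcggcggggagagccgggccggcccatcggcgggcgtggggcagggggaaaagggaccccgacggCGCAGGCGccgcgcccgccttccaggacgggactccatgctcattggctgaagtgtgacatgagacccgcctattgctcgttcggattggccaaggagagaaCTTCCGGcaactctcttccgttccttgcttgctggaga
Cox6a1, chr5:115348959-115349208, minus strand: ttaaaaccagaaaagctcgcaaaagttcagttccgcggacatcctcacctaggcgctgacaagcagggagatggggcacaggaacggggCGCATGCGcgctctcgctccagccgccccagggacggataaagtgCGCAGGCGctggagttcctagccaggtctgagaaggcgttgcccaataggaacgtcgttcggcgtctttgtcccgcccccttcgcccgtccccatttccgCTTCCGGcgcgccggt
Cox7a1, chr7:30183921-30184170, plus strand: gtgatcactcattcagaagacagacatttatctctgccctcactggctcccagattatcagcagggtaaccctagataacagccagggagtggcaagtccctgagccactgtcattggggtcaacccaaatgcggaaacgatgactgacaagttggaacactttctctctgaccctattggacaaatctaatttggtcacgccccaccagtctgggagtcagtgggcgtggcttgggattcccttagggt
Cox8b, chr7:140900447-140900696, minus strand: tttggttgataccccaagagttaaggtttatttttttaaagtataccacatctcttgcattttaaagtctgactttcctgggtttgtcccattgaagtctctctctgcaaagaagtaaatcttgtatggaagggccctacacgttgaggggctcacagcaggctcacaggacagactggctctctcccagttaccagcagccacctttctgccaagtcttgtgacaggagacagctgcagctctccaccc

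In the Atp5h window the NRF1 core lies 140 to 133 bases and the ETS motif 38 to 32 bases before the start. Cox6a1 has 2 NRF1 cores, at 161 to 154 and 116 to 109 bases, and an ETS motif at 16 to 10 bases. The windows of Cox7a1 and Cox8b hold neither motif in these 250 bases, and each holds 1 E-box.

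Complex I, the largest of the chain, had 33 members, of which 31 were below 0 and 8 were lower at an unadjusted p under 0.05. Its median difference was -0.18, with a range from -0.45 to 0.15. Of all features, 47.6% were below 0 and 7.25% lower at that p, and in the brightest decile 87.7% and 27.1%. That decile held 17 of 33 members of complex I, 3 of 4 of complex II and 4 of 7 of complex III. It held 9 of 17 members of complex IV and 10 of 17 of complex V. The SD of each array as a covariate is described further on. With it, complexes I, II and V had 0 members lower at that p, and III and IV 1 each. The 6 measured core subunits of the hydrophilic arm, which takes electrons from NADH to ubiquinone, were all below 0 with a median of -0.21, and 3 of them were lower at that p. The 27 accessory members had a median of -0.18, with 5 lower.

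Ndufv2, a core iron-sulfur subunit of the arm that oxidises NADH (feature 17346802), read 7.55, 7.45, 7.52 and 7.34 in knockout replicates 1 to 4 and 7.80, 7.91, 7.57 and 7.94 in control replicates 1 to 4. The groups did not overlap, with knockout replicate 1 just below control replicate 3. The difference was -0.34 (SE 0.11, n = 4 per group; limma adjusted p = 0.301), which is 1.27-fold lower. It was -0.18 after cyclic loess, with overlapping groups. Ndufs1, the largest iron-sulfur subunit, read 6.25, 6.39, 5.77 and 6.11 in knockout replicates 1 to 4 and 6.25, 6.79, 6.31 and 6.64 in control replicates 1 to 4. Knockout replicate 2 reached above control replicates 1 and 3, so the groups overlapped, and the difference was -0.37 (SE 0.15; adjusted p = 0.32). The quinone-side core subunits Ndufs8, Ndufs7 and Ndufs3 were at -0.28, -0.15 and -0.084. Ndufv1, which binds NADH and the flavin, was at -0.036 (SE 0.12). Ndufv1 and Ndufs7 turned positive after cyclic loess, at 0.088 and 0.014.

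Among accessory subunits the lowest was Ndufb9, of the membrane arm (feature 17311796). It read 9.71, 9.77, 9.56 and 9.52 in knockout replicates 1 to 4 and 10.04, 10.37, 9.80 and 10.13 in control replicates 1 to 4. The groups did not overlap, and control replicate 3, the lowest control, lay just above knockout replicate 2, the highest knockout value. The difference was -0.45 (SE 0.13; adjusted p = 0.296), and -0.35 after cyclic loess. Ndufa9, a subunit near the junction of the arms, was at -0.39 (adjusted p = 0.301), with control replicate 3 at 6.94 below knockout replicate 1 at 6.98. Ndufc1 (-0.37) was the third complex I member with groups apart, beside Ndufv2 and Ndufb9. Ndufb3, the dimmest member of the complex on this array, was at -0.31 (SE 0.14). At the other end, Ndufs5 was at 0.15 (SE 0.18; adjusted p = 0.696), where control replicate 4 read 5.46 and the other arrays between 5.71 and 6.35. Ndufa4, named for complex I but since assigned to complex IV, was at -0.21, and its relative Ndufa4l2, which responds to low oxygen, at -0.11. The features of Ndufa8 disagreed in sign, at -0.11 for the brighter and 0.13 for the other, neither past the test.

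Complex II, the only one with no mitochondrially encoded subunit, had its 4 genes measured, all below 0 with a median of -0.20. Sdhc, a membrane anchor that holds the haem (feature 17229629), read 7.02, 6.80, 6.78 and 6.77 in knockout replicates 1 to 4 and 7.26, 7.46, 7.02 and 7.33 in control replicates 1 to 4. Knockout replicate 1 stood above the other knockout animals and was level with control replicate 3 to the second decimal. The difference was -0.43 (SE 0.12; adjusted p = 0.291). Sdha, the flavoprotein that oxidises succinate, read 7.99, 8.13, 8.07 and 7.95 in knockout replicates 1 to 4 and 8.15, 8.33, 8.22 and 8.52 in control replicates 1 to 4. Its groups did not overlap, with a difference of -0.27 (SE 0.11; adjusted p = 0.312), but they overlapped after cyclic loess, at -0.11. The other anchor, Sdhd, was at -0.14 and the iron-sulfur subunit Sdhb at -0.068. After cyclic loess Sdhd and Sdhb were slightly positive, at 0.020 and 0.053.

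Complex III had 7 protein-coding members, 6 below 0, with a median of -0.16. Uqcrq, a small accessory subunit, had the smallest p of all members (unadjusted p = 0.00166, adjusted p = 0.291 in limma). Its feature 17262650 read 6.35, 6.28, 6.40 and 6.63 in knockout replicates 1 to 4 and 6.97, 6.92, 6.67 and 6.90 in control replicates 1 to 4. The groups did not overlap and the difference was -0.45 (SE 0.11), or 1.36-fold lower. It was -0.35 after cyclic loess, where the groups overlapped, and -0.43 without control replicate 2. Uqcrc1 and Uqcrc2 form the large core proteins on the matrix side. Uqcrc1 read 7.66, 7.63, 7.67 and 7.54 in knockout replicates 1 to 4 and 8.0, 8.12, 7.79 and 7.99 in control replicates 1 to 4, again without overlap, with a difference of -0.35 (SE 0.10; adjusted p = 0.296). After cyclic loess it was -0.19, and the groups overlapped. Uqcrc2 was at -0.29 (adjusted p = 0.305), where knockout replicate 2 overlapped the controls. Uqcrfs1, the Rieske iron-sulfur protein, was at -0.14, and Uqcrb, the brightest feature of the complex, at 0.055. Cyc1, the cytochrome c1 subunit, falls outside the symbol patterns and was at -0.22 (SE 0.14; adjusted p = 0.468).

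Complex IV had 17 members, 12 of them below 0, with a median of -0.14, and 1 lower at an unadjusted p under 0.05. That gene was Cox5a, a structural subunit on the matrix side (feature 17517727). It read 7.99, 7.78, 8.0 and 8.10 in knockout replicates 1 to 4 and 8.29, 8.44, 8.18 and 8.25 in control replicates 1 to 4. The highest knockout animal lay just below the lowest control animal, and the difference was -0.32 (SE 0.11; adjusted p = 0.301). After cyclic loess it was -0.16, and the groups then overlapped. The ubiquitous subunits Cox4i1, Cox6b1 and Cox5b were at -0.19, -0.21 and -0.11. Cox7b was the highest member with a protein product, at 0.20 (SE 0.19; adjusted p = 0.623), and its second feature was at 0.078. Control replicate 1 read 7.64 for it and control replicate 2 8.77, the lowest and highest of the 8 arrays, both controls. Without control replicate 2 the difference was 0.39 (unadjusted p = 0.0311 in limma), with the skeletal muscle level as a covariate 0.52 (unadjusted p = 0.00928), and after cyclic loess 0.35.

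Several subunits of complex IV exist as isoforms of different tissues. Cox6a2, Cox7a1 and Cox8b belong to skeletal muscle and heart, and Cox6a1, Cox7a2 and Cox8a are their widely expressed counterparts. Cox6a2 read 5.78, 6.88, 7.09 and 7.47 in knockout replicates 1 to 4 and 6.64, 8.09, 6.91 and 6.94 in control replicates 1 to 4. Cox7a1 read 6.0, 6.47, 6.38 and 6.52 in knockout replicates 1 to 4 and 6.43, 7.88, 6.49 and 6.53 in control replicates 1 to 4, and Cox8b read 5.69, 6.24, 6.26 and 6.70 in knockout replicates 1 to 4 and 6.15, 7.58, 6.63 and 6.62 in control replicates 1 to 4. In all 3, knockout replicate 1 was the lowest and control replicate 2 the highest of the 8 animals, and the groups overlapped. The differences were -0.34 for Cox6a2 (SE 0.34), -0.49 for Cox7a1 (SE 0.26) and -0.52 for Cox8b (SE 0.26), with adjusted p of 0.627, 0.4 and 0.371 in limma. Without control replicate 2 they were -0.025, -0.14 and -0.24.

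The skeletal muscle markers had the same extreme animals. The mean level of the 16 measured markers, such as Myh4, Acta1 and Ckm, was 5.65, 6.70, 6.34 and 6.55 in knockout replicates 1 to 4. In control replicates 1 to 4 it was 6.54, 8.32, 6.93 and 6.48. Of the 16, 15 were below 0 with a median of -0.72, 7 were lower at an unadjusted p under 0.05 and 0 were called. Of all features, 47.6% were below 0 and 7.25% lower at that p. In the brightest decile, which held 5 of the 16, it was 87.7% and 27.1%. No marker lay at the lowest values of the array: Mybpc2, the dimmest, had a mean level of 5.07. With the muscle level as a covariate the isoforms were at 0.31, 0.057 and -0.016. Over all 80 members that fit gave a median of -0.10, with 62 below 0 (49.5% of all features) and 10 lower at an unadjusted p under 0.05 (3.04%), while 1, Cox7b, was higher. The 2353 features of the brightest decile had a median of -0.19 in that fit, with 1986 below 0 and 253 lower at that p. The 43 members of that decile had a median of -0.17, with 38 below 0 and 9 lower. The muscle level is computed from the same arrays and overlaps with genotype, so this fit cannot separate them. The part of muscle in these differences was not tested. Brown fat markers, another cell type rich in mitochondria, lay in the lower 50% of features, with Ucp1 at 4.68, Cidea at 4.84 and Elovl3 at 4.97.

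The widely expressed counterparts spanned a narrower range. Cox8a read 10.12, 10.14, 10.20 and 10.35 in knockout replicates 1 to 4 and 10.21, 10.41, 10.34 and 10.40 in control replicates 1 to 4. Knockout replicate 4 overlapped the controls. The differences were -0.14 for Cox8a (SE 0.10), -0.23 for Cox7a2 (SE 0.12) and -0.23 for Cox6a1 (SE 0.14), and for Cox6a1 control replicate 3 read 10.68, below 3 of the 4 knockout animals. The testis isoforms Cox6b2, Cox7b2 and Cox8c were at 0.033, 0.14 and 0.022, at dim to middling levels. Cox4i2, the lung isoform that responds to oxygen, was at 0.030. Cox8c was -0.12 after cyclic loess.

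**Figure D3:**
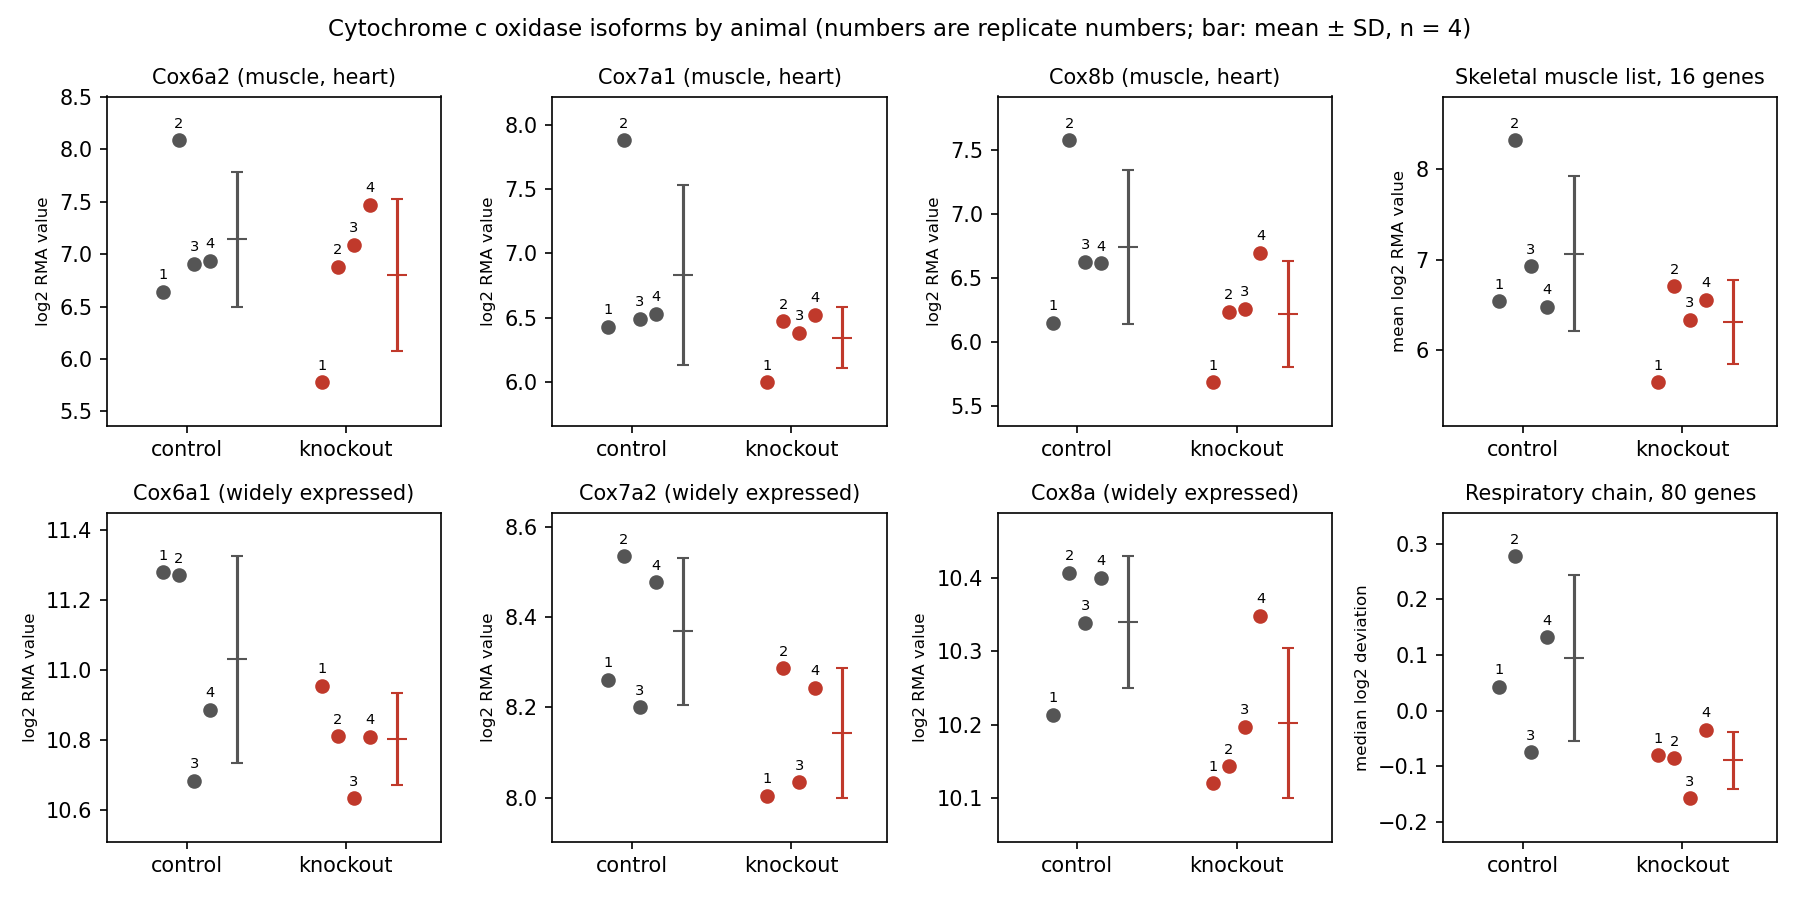
Log2 RMA values by animal for the muscle and heart isoforms of cytochrome c oxidase (upper row) and their widely expressed counterparts (lower row), beside the mean level of 16 skeletal muscle markers and the median deviation of the 80 members. Points are animals with their replicate numbers, and bars give the mean and SD of 4. Control replicate 2 is highest and knockout replicate 1 lowest in the upper row, as in the muscle markers.

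Complex V had 17 protein-coding members, 14 below 0, with a median of -0.16 and 6 lower at an unadjusted p under 0.05. Of the 17, 10 lay in the brightest decile, where 87.7% of features were below 0 and 27.1% lower at that p. The catalytic head was represented by Atp5a1 (subunit alpha) and Atp5b (subunit beta). Atp5a1 (feature 17352020) read 8.36, 8.51, 8.31 and 8.38 in knockout replicates 1 to 4 and 8.81, 8.87, 8.56 and 8.83 in control replicates 1 to 4. Atp5b (feature 17238278) read 9.46, 9.70, 9.54 and 9.48 in knockout replicates 1 to 4 and 9.87, 9.87, 9.78 and 10.08 in control replicates 1 to 4. The groups overlapped in neither gene, and control replicate 3 was the lowest control. The difference was -0.38 for Atp5a1 (SE 0.11; adjusted p = 0.291) and -0.36 for Atp5b (SE 0.11; adjusted p = 0.298). After cyclic loess the groups were still apart, at -0.23 and -0.26. The central stalk genes Atp5c1, Atp5d and Atp5e were at -0.15, -0.089 and -0.12.

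In the peripheral stalk, Atp5h (subunit d, feature 17315713) had the lowest difference of all members. It read 8.81, 8.72, 8.35 and 8.58 in knockout replicates 1 to 4 and 9.26, 9.49, 8.68 and 9.31 in control replicates 1 to 4. Control replicate 3 lay among the knockout animals, while the other controls were well above them. The difference was -0.57 (SE 0.16; adjusted p = 0.296), or 1.48-fold lower, and the second, dim feature of the gene was at -0.11. For the first feature it was -0.43 after cyclic loess and -0.15 with the SD of each array as a covariate. Atp5pb, subunit b of the same stalk, was at -0.32 (adjusted p = 0.301) with groups apart. Atp5o, which joins the stalk to the head, was at 0.12, and Atp5j at -0.16. Atp5g1, Atp5g2 and Atp5g3 encode the same mature subunit of the proton-translocating c ring. They were at 0.14, -0.21 and -0.35, and Atp5g3 alone had groups apart. Whether the features of these genes share signal was not tested. Of the small membrane subunits, Atp5mpl was at -0.50 (SE 0.15; adjusted p = 0.301), where control replicate 3 at 6.95 equalled knockout replicate 2 to the second decimal. Atp5mpl was at -0.36 after cyclic loess and -0.032 with the SD of each array as a covariate. Atp5md, the brightest of the complex, was at -0.16, and Atp5j2, the dimmest, at 0.12. The pseudogenes Atp5c1-ps and Uqcrh-ps1 were dim, at mean levels of 2.83 and 3.05, with differences of 0.057 and 0.28.

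The animals themselves differed in the level of the whole set. For each array the median deviation of the 80 members from their means over the 8 arrays was taken. It was -0.080, -0.085, -0.16 and -0.034 in knockout replicates 1 to 4 and 0.043, 0.28, -0.074 and 0.13 in control replicates 1 to 4. Control replicate 2 stood highest, and control replicate 3 lay inside the knockout range of -0.16 to -0.034, so the groups overlapped. Control replicate 2 held the highest value of the 8 arrays for 47 members (58.8%), whereas it did so for 24.6% of the features of the brightest decile. Control replicate 4 was highest for 13 members (16.2%) and for 46.3% of those features. Knockout replicate 3 was lowest most often, in 28 members (35.0%), beside 28.8% of those features. The members and the bright features in general thus had different animals at the top.

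Markers of other cell types were read from the same fit. Of 7 spiral ganglion neuron markers, 5 were below 0 and lower at an unadjusted p under 0.05, with a median of -0.52. Snap25, a synaptic vesicle fusion protein and the only one called, was at -1.09 (SE 0.15; adjusted p = 0.0389). Its adjusted p was 0.171 after cyclic loess, and ran from 0.0159 without control replicate 3 to 0.503 with the muscle covariate. Its difference was -0.93 after cyclic loess, -1.03 with the muscle covariate and -1.09 with the SD covariate. The mean level of the 7 was 5.80 to 6.23 in knockout and 6.25 to 6.75 in control animals, without overlap. The dimmest, Prph, had a mean level of 5.13. All 5 bone and all 4 erythroid markers were below 0, with medians of -0.23 and -0.32, 1 of each was lower at that p, and the groups overlapped in their mean level. With the SD of each array as a covariate, described further on, 0 of 4 erythroid markers were below 0, with a median of 0.19. All 4 fibrocyte markers were below 0 as well, with a median of -0.30 (-0.41 with the SD covariate). At that p, 2 of them were lower, Coch at -0.35 and Slc4a11 at -0.57, and 3 with the SD covariate. Their mean level was 9.27 to 9.82 in knockout and 9.80 to 9.89 in control animals. The stria vascularis list had 3 of 5 below 0 (median -0.085) and the hair cell list 4 of 7 (median -0.032). Of all features, 47.6% were below 0 and 7.25% lower at that p, and in the brightest decile 87.7% and 27.1%. That decile held all 5 bone and all 4 fibrocyte markers, 3 of 4 erythroid and 2 of 7 neuron markers. The part of neurons, fibrocytes, bone or blood cells in the respiratory chain differences was not tested.

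The same deviation was taken by complex. The deviation of complex I was -0.064, -0.086, -0.16 and -0.064 in knockout replicates 1 to 4 and 0.052, 0.29, -0.091 and 0.19 in control replicates 1 to 4. That of complex V was -0.10, -0.078, -0.16 and -0.053 in knockout replicates 1 to 4 and 0.12, 0.19, -0.092 and 0.095 in control replicates 1 to 4. Both had control replicate 2 as the highest animal and control replicate 3 between knockout animals. Complex IV had knockout replicate 4 at 0.078, above control replicates 1, 3 and 4. The spread of whole arrays also differed. The SD of the log2 values of each array was 1.37 to 1.44 in knockout and 1.41 to 1.56 in control animals, with control replicate 3 inside the knockout range. With this SD as a covariate, 2 members were lower at an unadjusted p under 0.05 (3.14% of all features) and the members' median was -0.037. The covariate is computed from the same features and overlaps with genotype.

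**Figure D4:**
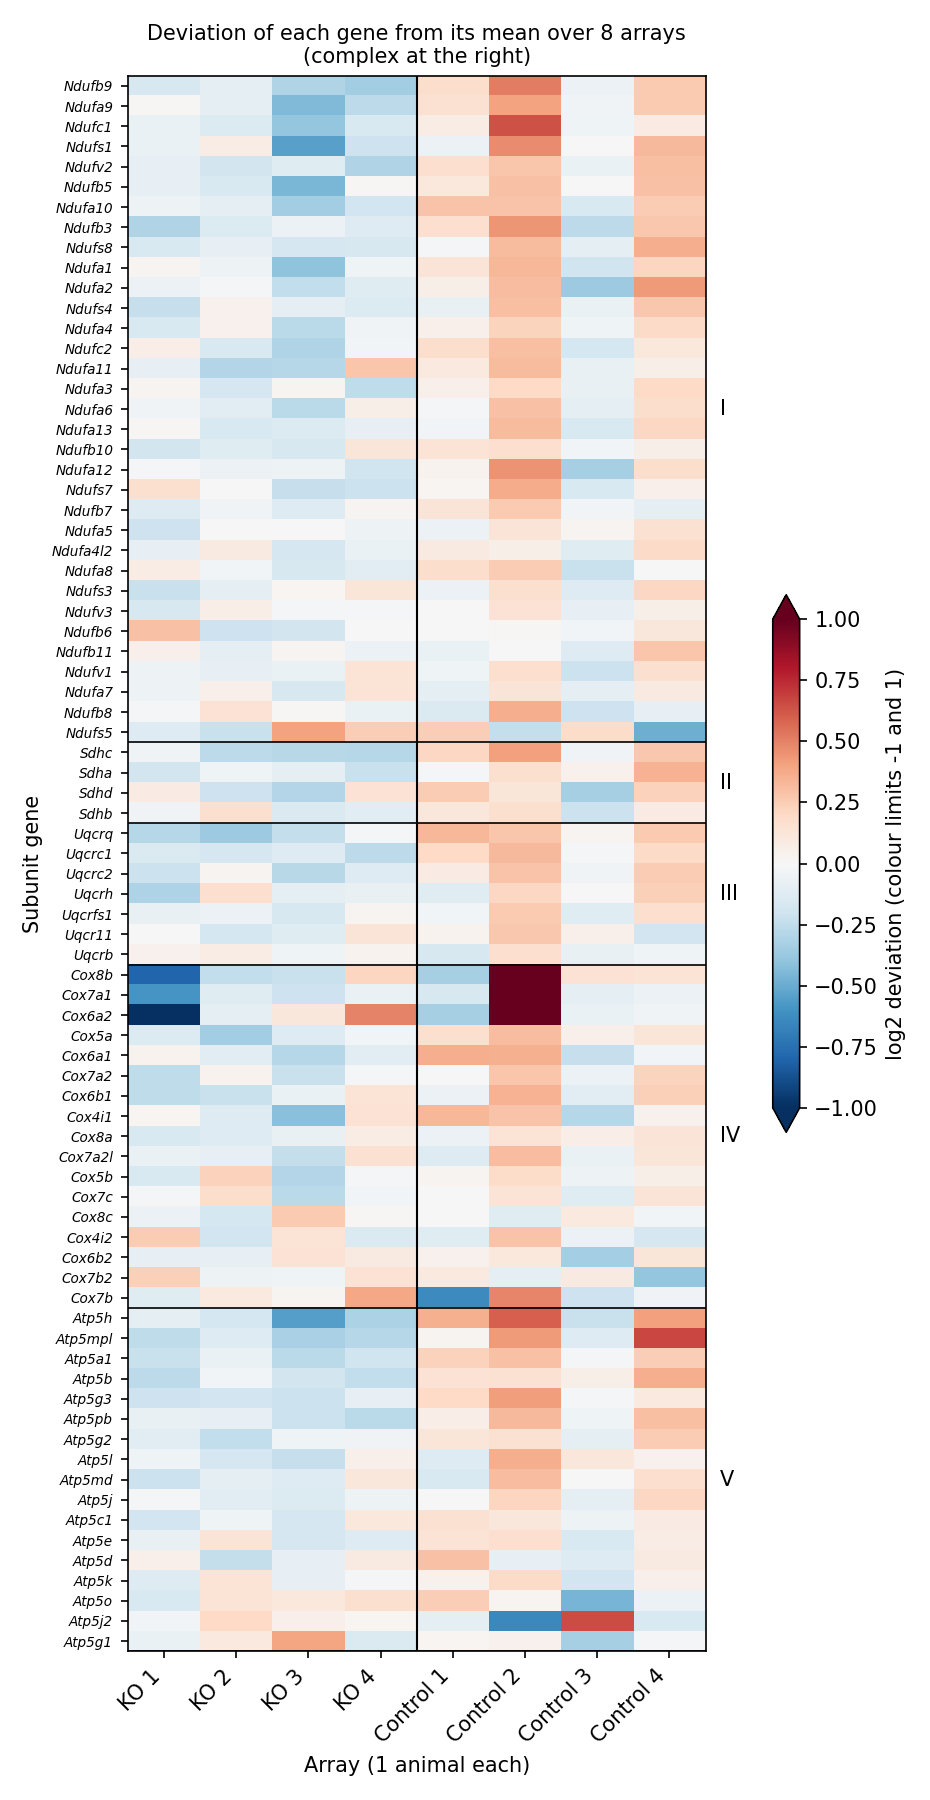
Deviation of each of the 78 protein-coding members (rows, by complex) from its mean over the 8 arrays, in log2 units; columns are the animals. Control replicate 2 is the reddest column, being highest for 47 of the 80 members, control replicate 3 resembles the knockout columns, and the muscle and heart isoforms reach beyond the colour limits.

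Genes that serve the chain or feed it were read from the same fit, and 0 were called in the lists of assembly factors, electron carriers, regulators, cycle and glycolytic genes. Of 42 assembly factors, 36 were below 0 with a median of -0.11, and 5 (11.9%) were lower at an unadjusted p under 0.05. Of all features, 47.6% were below 0 and 7.25% lower at that p. With the SD covariate 22 of the 42 were below 0, with a median of -0.019, and 1 was lower at that p (3.14% of all features). Cox16, which helps to build complex IV, read 5.67, 5.63, 5.65 and 5.69 in knockout replicates 1 to 4 and 5.87, 6.19, 6.02 and 6.24 in control replicates 1 to 4. The groups were clearly apart, with a difference of -0.42 (SE 0.11; adjusted p = 0.291). Coa3, another complex IV factor, was at -0.42 and Ndufaf3, a complex I factor, at -0.34 (groups apart). Among 5 electron carriers the median was -0.23, with cytochrome c (Cycs) at -0.19 and the electron transfer flavoprotein subunit Etfb and its dehydrogenase Etfdh at -0.32 and -0.30. Of the subunits that the symbol patterns miss, the acyl carrier Ndufab1 was at -0.20 and Atpif1, the inhibitor of the ATP synthase, at -0.16.

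The regulators went both ways. Of 16 genes that control mitochondrial transcription and biogenesis, 11 were below 0 with a median of -0.11, and at an unadjusted p under 0.05, 1 was lower and 2 higher. Of all features, 47.6% were below 0, and 7.25% were lower and 7.04% higher at that p. With the SD covariate the direction turned, with 3 of 16 below 0 and a median of 0.099. Ppargc1a, the coactivator PGC-1 alpha that drives mitochondrial biogenesis, read 5.51, 5.46, 5.47 and 5.49 in knockout replicates 1 to 4 and 5.77, 6.08, 5.69 and 5.63 in control replicates 1 to 4. The 4 knockout animals lay close together, below every control. The difference was -0.31 (SE 0.12; adjusted p = 0.305). Esrrg, an orphan nuclear receptor that partners with it, read 6.24, 6.14, 6.05 and 6.05 in knockout replicates 1 to 4 and 5.88, 5.92, 5.75 and 5.55 in control replicates 1 to 4. It lay the other way, without overlap, with a difference of 0.35 (SE 0.11; adjusted p = 0.301). Tfb2m, a mitochondrial transcription factor, was at 0.38 (SE 0.15; adjusted p = 0.306) on the brightest of its 3 features. None of these genes passed.

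Other energy pathways were read in the same way. All 12 measured genes of the tricarboxylic acid cycle were below 0, with a median of -0.27, and 5 were lower at an unadjusted p under 0.05. Idh3b read 7.81, 7.85, 7.71 and 7.42 in knockout replicates 1 to 4 and 8.13, 8.35, 7.95 and 8.30 in control replicates 1 to 4, with groups apart and a difference of -0.48 (SE 0.13; adjusted p = 0.291). Ogdh and Mdh2 were at -0.33 and -0.37, Ogdh with groups apart. All 11 measured glycolytic genes were below 0 as well, with a median of -0.24 and 4 lower, among them Pkm at -0.31, Tpi1 at -0.37 and Aldoc at -0.32. Of the cycle genes, 8 of 12, and of the glycolytic genes, 5 of 11 lay in the brightest decile of features, whose median was -0.21. Beside these counts, 47.6% of all features were below 0 and 7.25% lower at that p, and in the brightest decile 87.7% and 27.1%. After cyclic loess the medians were -0.14 for the cycle and -0.16 for glycolysis, and with the SD covariate -0.034 and -0.13. The mitochondrially encoded subunits were not analysed here.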

How the data were processed

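Expression was measured in cochleae of 4 knockout and 4 control mice on Affymetrix mouse gene arrays. The deposited log2 values come from the authors' RMA run in Expression Console, according to the labels and, for the software, to the submitters' processing notes. RMA corrects background, quantile-normalises and summarises the probes of a feature by median polish. Software version and array genome build: not given in the sources used here. No detection call was used, so dim features cannot be set apart from background.

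Of 41345 features, 23521 carried exactly 1 symbol in the platform annotation (1814 several, 16010 none), and all 80 members had an entry in the RefSeq gene table of GRCm38.p6. Knockout was compared with control on these 23521 features in limma 3.58.1 (R 4.3.3) (functions lmFit and eBayes, trend on mean level), with genotype as the only term and Benjamini-Hochberg adjustment over all of them at 0.05. Differences are knockout minus control. Each animal is 1 replicate, per the labels. Groups are called apart when every knockout value lies on one side of every control value. Deciles of level rank the tested features by their mean over the 8 arrays.

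The members, lists and comparisons were chosen with earlier results of these data known, so no list was tested. Named were, per complex, the 3 members with the smallest p, the highest and lowest difference and the brightest and dimmest member, besides core subunits and tissue isoforms, members whose features disagree in sign, and up to 3 genes per companion list. Other members given with values (for example Ndufc1, Ndufa4, Atp5mpl and Atp5pb) were chosen after their values were seen. Alternatives were cyclic loess, median-centring, eBayes without trend or robust, other feature sets, the replicate block, 2 covariates, averaged features and leaving out each array. The steps were tested on simulated data.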

Additional observations from a re-analysis of the deposited data

Results flagged for a closer look

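Some animals stood apart from the other 3 of their group by Dixon's gap test. Control replicate 2 read 7.88 for the muscle isoform Cox7a1, where the other controls read 6.43 to 6.53, and this animal also had the highest muscle marker level. Knockout replicate 1 read 7.02 for Sdhc, against 6.77 to 6.80 in the other knockout animals. Knockout replicate 4 read 7.07 for Ndufv1, against 6.85 to 6.88, and 6.62 for Etfb, against 6.45 to 6.46. Control replicate 3 read 5.0 for Atp5g1, against 5.31 to 5.37 in the other controls. Knockout replicate 3 read 7.36 for the glycolytic gene Tpi1, against 7.59 to 7.62. These were 6 of 114 groups of 4 examined, and chance gives about 1 in 20.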

How the results depend on the processing

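In 18 alternatives 0 members were called. The count of features called over the whole array was 3 as deposited, 1 over all features of the table, 1 with the SD of each array as a covariate, and 1 to 21 when an array was left out (1 without control replicate 1, 21 without control replicate 3). The count of members lower at an unadjusted p under 0.05, 20 as deposited, was 11 after cyclic loess, 10 with the skeletal muscle covariate, 2 with the SD covariate and 12 to 34 when an array was left out. The members' median difference was -0.037 with the SD covariate and -0.23 to -0.12 when an array was left out. Same-numbered animals correlated at -0.29 to 0.21 in their deviations from the group means, and 1 of 4 knockout animals matched its own number best. The replicate labels state no pairing, and so few correlations cannot settle whether the numbers pair the animals. With the replicate block 24 members were lower at that p, 0 members were called, and 3 features were called in all. Of 1023 values of 57 named genes, 980 kept their sign and their side of the threshold and 43 changed sign, all uncalled. Those were, after cyclic loess, Sdhd 0.020, Sdhb 0.053, Ndufv1 0.088, Ndufs7 0.014, Cox8c -0.12 and Ndufa8 0.022; after median-centring, Uqcrb -0.028, Cox6b2 -0.050, Cox8c -0.061 and Cox4i2 -0.053; with the muscle covariate, Atp5j2 -0.049, Ndufv1 0.018, Cox6a2 0.31, Cox7a1 0.057 and Cox8c -0.025; with the SD covariate, Ndufs5 -0.33, Ndufb3 0.0071, Sdhd 0.082, Sdhb 0.18, Uqcrfs1 0.035, Cox7b2 -0.13, Atp5j2 -0.35, Ndufv1 0.13, Ndufs3 0.054, Ndufs7 0.069, Cox8c -0.13, Ndufa4l2 0.086, Ndufa8 0.071, Cyc1 0.095 and Atpif1 0.025; with all features of a gene averaged, Ndufa8 0.0076. When an array was left out, the genes that changed sign ranged as follows: Atp5j2 -0.071 to 0.36, Cox4i2 -0.050 to 0.13, Cox6a2 -0.56 to 0.0018, Cox6b2 -0.074 to 0.080, Cox8c -0.063 to 0.084, Ndufv1 -0.11 to 0.015. The cause was not tested. The 6 dim members, with a mean under 5, left the fit that kept brighter features. The number of arrays limits the precision.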
